A study of Mus musculus with 2 samples.

Results

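The elastic fibre genes are 10 mouse genes, Eln, Fbn1, Mfap4, Mfap5, Fbln1, Fbln2, Fbln5, Efemp1, Lox and Loxl1, taken by symbol from the 32285 genes counted in each library. They were listed after their values in these data had been seen, so their levels and differences are given as a description and no member was tested. Single-cell RNA sequencing was done on peritoneal tumours of female C57BL/6 mice of 6 to 8 weeks, in which the peritoneal wall had been abraded and syngeneic ovarian cancer cells of the genotype p53-/-, myc, Hras had been injected i.p. One library held the pooled tumours of mice given control IgG (7 mice per the labels) and the other those of mice given an Activin A neutralizing antibody (8 mice), each daily for 10 days. The study describes its single-cell experiment with another number of mice and another length of treatment, and which experiment the libraries came from was not settled. Each group is 1 library, so the antibody cannot be told apart from any other difference between the 2 libraries, and every interval below covers counting error only.

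Elastic fibres let tissue stretch and recoil. Cells, mostly fibroblasts and smooth muscle cells, secrete tropoelastin (the product of Eln), which is laid on a scaffold of microfibrils built from fibrillin-1 (Fbn1) and decorated by the microfibril-associated proteins (Mfap4, Mfap5). Fibulins (Fbln1, Fbln2, Fbln5 and Efemp1, which encodes fibulin-3) bridge elastin, microfibrils and basement membranes, and lysyl oxidases (Lox, Loxl1) cross-link the deposited elastin and, in the case of Lox, collagen too. In connective tissue the microfibril genes are widely used by resting fibroblasts, while Lox is also a gene of matrix-building myofibroblasts.

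Cells that passed the quality limits numbered 8770 in the control IgG library and 6386 in the antibody library, with medians of 5719 and 4660 UMIs (unique molecular identifiers, 1 per captured RNA molecule). Marker gates that use no member gave 178 and 214 fibroblasts. These divided into myofibroblasts with Acta2 or Tagln (33 and 12 cells), Pi16 or Car3 fibroblasts (63 and 84) and other fibroblasts (82 and 118). There were 41 and 29 mesothelial-like, 306 and 328 cancer-like, 5561 and 4409 lymphoid and 2437 and 1200 myeloid cells. Endothelial-like cells numbered 9 and 2, and no cell passed the mural gate, so the muscle cells of vessel walls, in which elastin is abundant, could not be described. All 6 fibroblast markers held outside the gates had UMIs in each fibroblast subset. The myofibroblasts of the libraries were unlike. Their 5 myofibroblast markers (the gate genes Acta2 and Tagln with Myl9, Cnn1 and Tpm2) summed to 6798 CPM with control IgG and 2602 with the antibody. Cnn1 had 0 UMIs in the latter. The part of this in the differences within myofibroblasts below was not tested. The libraries shared 19 kept cell barcodes (0.217% and 0.298% of their cells). Pi16 or Car3 fibroblasts also carried adipocyte markers, with UMIs for all 5 (Adipoq, Plin1, Fabp4, Cidec and the gate gene Car3) and a summed level of 2313 and 1352 CPM.

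Levels are CPM, the UMIs of a gene per 1000000 UMIs of its class in a library. They are counts of 3′ ends and are compared within a gene, not between genes. Over the fibroblast subsets, mesothelial-like, cancer-like, lymphoid and myeloid cells, all 10 members had their highest level in a fibroblast subset, in both libraries. The few endothelial-like cells are left out of this order. In the antibody library 1 of the 2 held all 19 of their Fbln5 UMIs (202 CPM), more than the 135 CPM of Pi16 or Car3 fibroblasts. In lymphoid cells, which should lack them, none exceeded 1.42 CPM. In cancer-like cells Fbln2 had 80.3 CPM with control IgG and 62.9 with the antibody, Fbn1 35.8 and 28.4, and Fbln1 7.27 and 8.01 CPM. These stood well above the lymphoid levels of 1.42 and 1.23 CPM for Fbln2, 1.02 and 0.81 for Fbn1 and 0.57 and 0.51 for Fbln1. The other 7 members were under 3 CPM in cancer-like cells. Mesothelial-like cells, the covering layer of the peritoneum, carried 8 members at more than 20 CPM in both libraries, all but Mfap4 and Fbln5. Mfap4 had 6 UMIs there with control IgG and 0 with the antibody, where 3 UMIs would be 3.04 CPM.

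**Figure D1:**
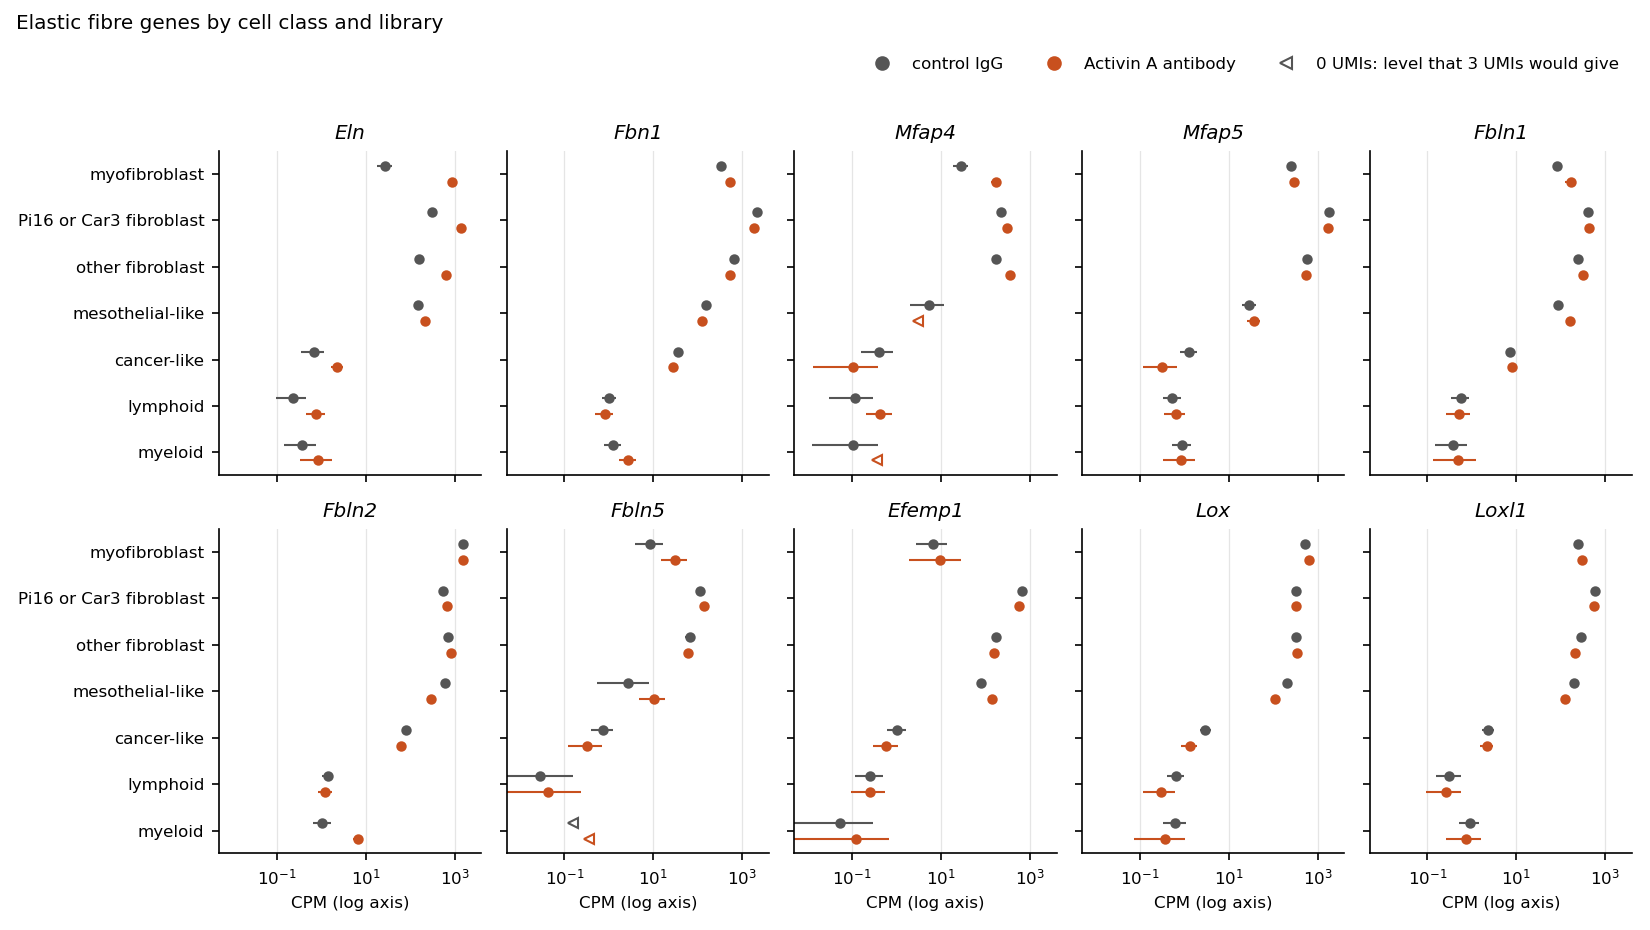
Level of each member (CPM, log axis) in 7 cell classes, with control IgG in grey and the Activin A antibody in orange; points are sums over the cells of a class, lines are exact Poisson 95% intervals, and open triangles mark classes with 0 UMIs at the level that 3 UMIs would give. A fibroblast subset lies highest for every member among the classes plotted, and the gap between the libraries in fibroblasts is widest for Eln, with 309 and 1392 CPM in Pi16 or Car3 fibroblasts.

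Eln (ENSMUSG00000029675, chr5:134702593-134747323 on the minus strand of GRCm38) showed the widest difference of the 10 members between the libraries. It had 440 UMIs, or 150.3 CPM (95% interval 137 to 165), in the fibroblasts of the control IgG library and 2418 UMIs, or 915 CPM (878 to 952), in those of the antibody library, a ratio of 6.09 (log2 2.61, 2.46 to 2.76). This placed Eln at rank 28 from the highest of 11426 genes with at least 20 UMIs. The other members of the fibre were spread around 0. Mfap4 was 2.35-fold higher, and the 8 others lay within log2 -0.17 and 0.56. With a call set at 20 UMIs and 2-fold, 2 of 10 members, Eln and Mfap4, were higher with the antibody in all fibroblasts, against 3.2% of all genes tested. None of the 10 was lower, against 2.84% of all genes. The median log2 ratio was 0.12 over the members and 0.04 over all genes. Because the list was drawn up from such values, nothing is read from these shares.

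The higher Eln level was found in each fibroblast subset. In Pi16 or Car3 fibroblasts Eln had 309 CPM with control IgG and 1392 CPM with the antibody. Other fibroblasts had 157 and 657 CPM. The log2 ratios of these subsets were close, at 2.17 (1.97 to 2.38) and 2.07 (1.83 to 2.31). Myofibroblasts had 26.5 and 881 CPM, but this pair rests on 1 cell, which held 263 of the 281 Eln UMIs of the antibody library's 12 myofibroblasts. Without the cell richest in Eln of each library the myofibroblast ratio was 5.04-fold in place of 33.2-fold. That ratio still rests on few UMIs. Only 4 and 5 myofibroblasts had an Eln UMI, and the next richest held 8 and 10. Without the richest cell the ratio in Pi16 or Car3 fibroblasts was 2.86-fold in place of 4.51-fold, since 623 of their 1154 Eln UMIs with the antibody lay in 1 cell. In other fibroblasts it was 2.70-fold in place of 4.19-fold when cells with markers of 2 classes were put back, and 2.71-fold without the 5 richest cells. In mesothelial-like cells Eln had 148 and 220.2 CPM, a log2 ratio of 0.57 (0.27 to 0.87), which was 0.02 without the 5% of cells highest in UMIs.

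Few fibroblasts held most of the Eln UMIs. The median fibroblast of either library had no Eln UMI. An Eln UMI was found in 76 of 178 fibroblasts with control IgG (42.7%, exact binomial interval 35.3 to 50.3) and in 105 of 214 with the antibody (49.1%, 42.2 to 56.0). Thinned to 2000 UMIs per cell, with 2 shallower cells left out of each library, the shares were 18.4% and 29.4%, against 0.046% and 0.13% in lymphoid cells. Cells with at least 5 Eln UMIs made up 10.7% and 21.5% of fibroblasts. Those with at least 20 were 5 of 178 (2.81%, 0.918 to 6.43) and 16 of 214 (7.48%, 4.33 to 11.9), and they held 47.3% and 85.0% of the Eln UMIs. Only the antibody library had fibroblasts with 100 or more, 6 of 214, of which 4 were other fibroblasts, 1 was a Pi16 or Car3 fibroblast and 1 was a myofibroblast. The richest cell held 64 Eln UMIs with control IgG and 623 with the antibody.

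Eln remained higher in the antibody library when its richest cells were left out. Without the 5 richest fibroblasts of each library the levels were 80.3 and 386 CPM, a ratio of 4.80. Without 16 they were 46.7 and 148 CPM, a ratio of 3.17, and without 30 they were 28.6 and 92.0 CPM, a ratio of 3.22. The mean of the cells' own CPM, in which every cell weighs the same, gave 272 and 914 CPM, a ratio of 3.36. The counting interval printed above is therefore too narrow, since UMIs of one cell do not vary independently. The size of the Eln difference depended on these cells, from 6.09-fold to 3.14-fold at its lowest, and its direction did not.

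**Figure D2:**
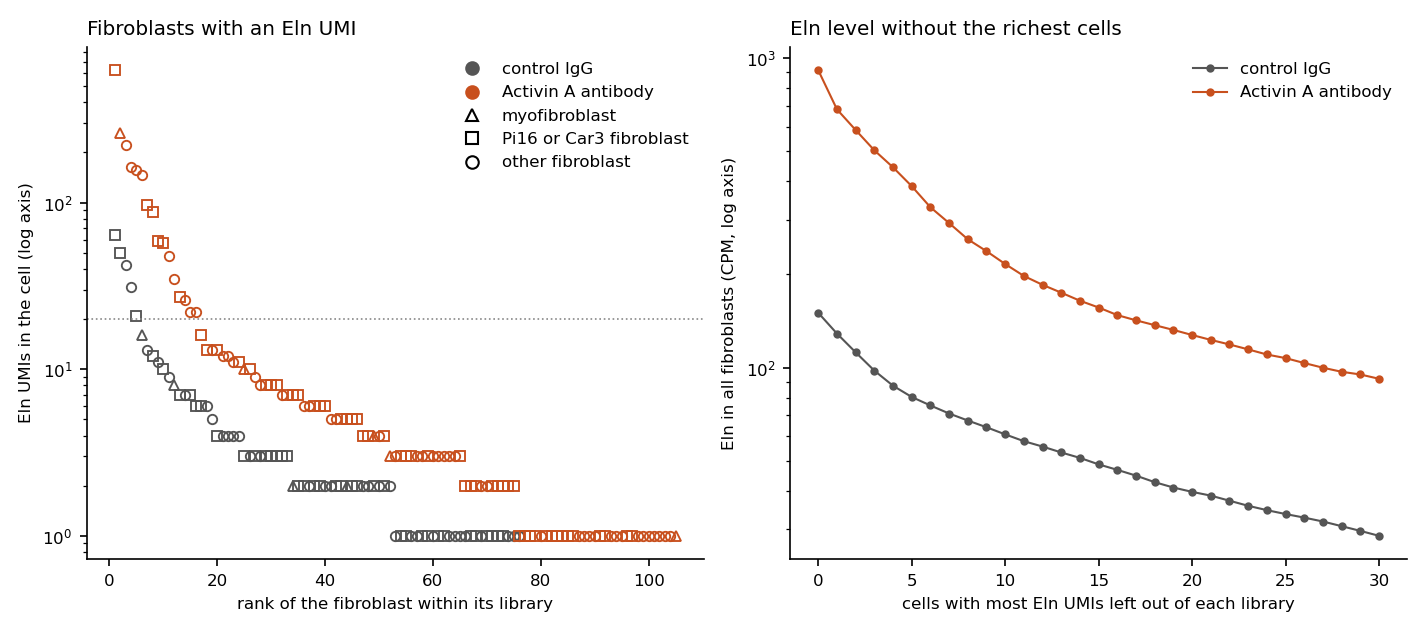
Left, Eln UMIs (log axis) of each fibroblast with at least 1, ranked within its library, with the subset shown by the symbol; the dotted line marks 20 UMIs, which 5 control IgG and 16 antibody cells reached. Right, Eln in all fibroblasts (CPM, log axis) after leaving out the cells richest in Eln from each library; the lines come closer over the first 16 cells, from 6.09-fold to 3.17-fold, and then run nearly in parallel.

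The fibroblasts with at least 20 Eln UMIs, called Eln-rich here, were low in Acta2. Their median depth was 8775 UMIs with control IgG and 12387 with the antibody, beside 13398 and 8719 over all fibroblasts. Myh11, a smooth muscle myosin, had 0 UMIs in the 5 cells and 1 UMI in the 16. It was scarce in the other fibroblasts too, with 9 and 6 UMIs (3.12 and 2.45 CPM). Its counts therefore do not set the Eln-rich cells apart. Acta2, the smooth muscle actin of myofibroblasts, had 0 UMIs in the 5 and 82.6 CPM in the 16, against 1165 and 211 CPM in the other fibroblasts of the same libraries. Those other fibroblasts include myofibroblasts, which were gated on Acta2 plus Tagln, and the part of the gate in this difference was not tested. Of the Eln-rich cells, 0 of the 5 and 1 of the 16 were myofibroblasts. Acta2 was not compared with its level in the other cells outside that gate. Pdgfra, a receptor of fibroblasts, had 736 CPM in the 5 and 299 CPM in the 16, against 260.0 and 346 CPM in the other fibroblasts, so it stood higher in the Eln-rich cells of the control IgG library and slightly lower in those of the antibody library.

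Several members were also high in these cells. The cells were picked by Eln, so only the other members are described. Mfap4 had 1015 CPM in the Eln-rich cells and 122 CPM in the other fibroblasts with control IgG (log2 3.05, 2.54 to 3.53), and 1244 and 242 CPM with the antibody (2.36, 2.14 to 2.58). Fbln1 had log2 ratios of 2.22 and 1.43, and Mfap5 of 0.97 and 1.10. Fbn1 was 0.50 and 1.06 above the other fibroblasts on the log2 scale, and Loxl1 0.74 and 1.05. That group includes myofibroblasts, in which Fbn1, Mfap5 and Loxl1 were lower than in Pi16 or Car3 fibroblasts. Fbn1 had 1294 and 1811 CPM in the Eln-rich cells, beside 2107 and 1804 CPM in Pi16 or Car3 fibroblasts. Mfap5 had 1522 and 1734 beside 1819 and 1703 CPM, and Loxl1 583 and 624 beside 589 and 546 CPM. Mfap4 and Fbln1 were higher in the Eln-rich cells than in that subset in both libraries. Lox had log2 ratios of 0.27 (-0.47 to 0.92) from 19 UMIs with control IgG and 1.59 (1.35 to 1.82) from 188 with the antibody. The intervals of Fbln2 and Efemp1 included 0 in both libraries. With 5 cells in the control IgG library, cell-to-cell variation is not covered by these intervals.

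**Figure D3:**
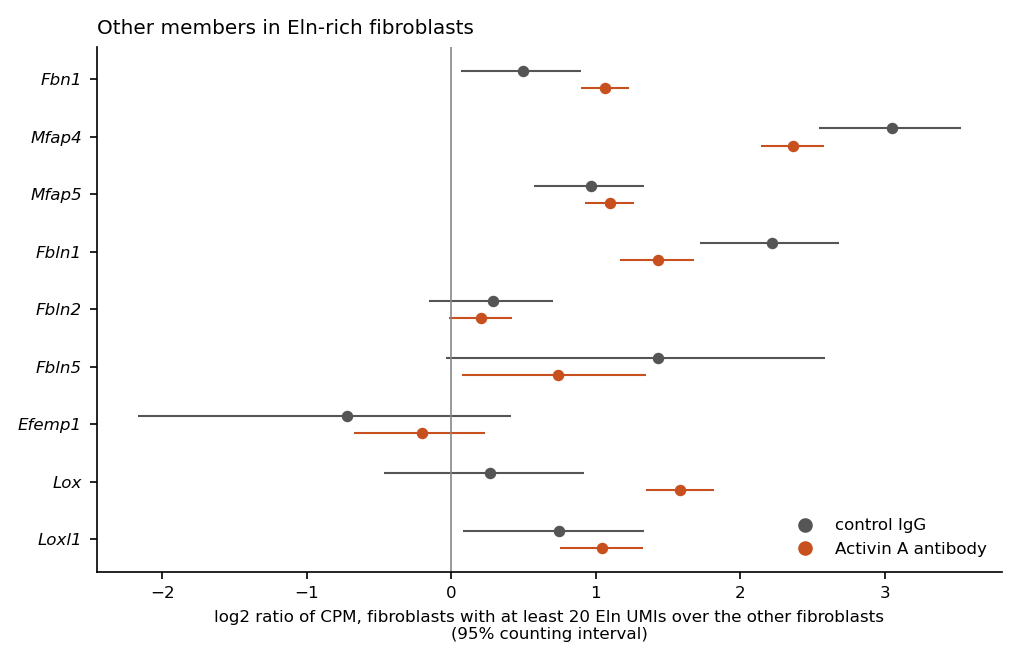
Log2 ratio of CPM in fibroblasts with at least 20 Eln UMIs over all other fibroblasts of the same library, for the 9 other members, with control IgG (5 cells) in grey and the antibody (16 cells) in orange; lines are 95% counting intervals. Mfap4 and Fbln1 lie farthest to the right in the control IgG library and Mfap4 and Lox in the antibody library, while the intervals of Fbln2 and Efemp1 include 0 in both.

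Among the 3 microfibril members Mfap4 alone differed by 2-fold in all fibroblasts. Mfap4 (ENSMUSG00000042436, chr11:61485431-61488900 on the plus strand), a glycoprotein that binds fibrillin and elastin, had 134 CPM with control IgG and 315 CPM with the antibody (log2 1.23, 1.06 to 1.41). It was found in 39.3% and 40.2% of fibroblasts, and in 19.2% and 28.3% after thinning to 2000 UMIs. By subset, other fibroblasts had 169.8 and 349 CPM and Pi16 or Car3 fibroblasts 229 and 308 CPM, log2 0.43 (0.15 to 0.71). Myofibroblasts had 27.5 and 176 CPM, from 29 and 56 UMIs of which single cells held 16 and 37.

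Fbn1, which forms the microfibril backbone, had 922 CPM with control IgG and 935 CPM with the antibody (log2 0.02, -0.06 to 0.10). Its subsets did not share a direction. Myofibroblasts had 332 and 533 CPM (log2 0.68), Pi16 or Car3 fibroblasts 2107 and 1804 CPM (-0.22) and other fibroblasts 649 and 539 CPM (-0.27). Mfap5, which binds fibrillin, had 788 and 877 CPM over all fibroblasts, and within each subset its interval included 0. Both genes were highest in Pi16 or Car3 fibroblasts. Fbn1 was 6.35-fold higher there than in myofibroblasts with control IgG and 3.39-fold with the antibody, and Mfap5 was 7.11-fold and 5.78-fold higher.

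The fibulins had opposite orders over the subsets. Fbln5, which binds tropoelastin and guides it to microfibrils, had 112 and 135 CPM in Pi16 or Car3 fibroblasts, 66.6 and 61.5 CPM in other fibroblasts, and 8.53 and 31.3 CPM in myofibroblasts, the last from 9 and 10 UMIs. Fbln1, which binds elastic fibres and basement membranes, had 402 and 437 CPM, 246 and 316 CPM, and 82.5 and 166 CPM in the same order. Efemp1 was the most uneven, with 681 and 557 CPM in Pi16 or Car3 fibroblasts and 6.64 and 9.40 CPM in myofibroblasts, ratios of 103 and 59.3 between the subsets (log2 6.68, 5.63 to 8.00, and 5.89, 4.33 to 8.17). Fbln2, a fibulin of basement membranes and vessel walls, was highest in myofibroblasts, with 1559.6 and 1539 CPM against 536 and 666 CPM in Pi16 or Car3 fibroblasts. The order of Fbln2 was thus the reverse of the other 3 in both libraries.

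The 250 bases before a transcript start of Fbln1, Fbln5 and Fbln2 are shown, since these relatives had opposite orders over the subsets. They are from RefSeq on GRCm38.p6 and read 5′ to 3′ on the strand of the gene. Capitals mark CAGAC or its reverse complement GTCTG, a form of the site bound by SMAD proteins, through which activin signals. Shorter forms of the site were not marked.
Fbln1 (chr15:85205699-85205948, plus strand): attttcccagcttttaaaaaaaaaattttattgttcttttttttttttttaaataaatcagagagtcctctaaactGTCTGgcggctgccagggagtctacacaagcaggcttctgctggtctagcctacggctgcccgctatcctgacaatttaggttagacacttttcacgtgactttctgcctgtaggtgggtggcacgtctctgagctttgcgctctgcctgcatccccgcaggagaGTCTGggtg
Fbln5 (chr12:101818485-101818734, minus strand): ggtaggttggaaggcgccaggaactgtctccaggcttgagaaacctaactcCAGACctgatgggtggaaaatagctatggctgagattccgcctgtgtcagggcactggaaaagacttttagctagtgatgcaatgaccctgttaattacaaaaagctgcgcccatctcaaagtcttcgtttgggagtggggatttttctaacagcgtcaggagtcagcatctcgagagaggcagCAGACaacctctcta
Fbln2 (chr6:91212514-91212763, plus strand): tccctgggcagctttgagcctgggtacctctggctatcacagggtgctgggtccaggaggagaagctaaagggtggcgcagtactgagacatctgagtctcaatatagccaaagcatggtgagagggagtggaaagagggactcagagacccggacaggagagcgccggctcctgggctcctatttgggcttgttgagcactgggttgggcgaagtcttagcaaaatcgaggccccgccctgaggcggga
The letters occurred 2 times in each of the windows shown of Fbln1 and Fbln5 and not in that of Fbln2. They were also absent from the window of Efemp1 (chr11:28852955-28853204, not shown). Efemp1 had the same order over the subsets as Fbln1 and Fbln5, so the letters CAGAC did not follow the order. The shorter CAGA, which the paper marked in another promoter, was not counted. It does occur in the window shown of Fbln2, which thus does not lack every form of the site. A second start of Fbln5 has a window without CAGAC or GTCTG (chr12:101819120-101819369). They occur on either strand in 42.2% of 32851 windows of this length, and in 3 of 7 windows of the 5 members with an entry (Fbln1, Fbln2, Fbln5, Efemp1 and Fbn1), so their presence is a description of the letters alone.

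Between the libraries the fibulins differed less than Eln. Over all fibroblasts Fbln1 had 228 CPM with control IgG and 336 CPM with the antibody (log2 0.56, 0.41 to 0.70), and Fbln5 57.7 and 80.9 CPM (0.49, 0.19 to 0.79). By subset Fbln5 was at log2 0.27 (-0.14 to 0.69) in Pi16 or Car3 fibroblasts and -0.12 (-0.57 to 0.35) in other fibroblasts. Fbln1 was at 0.12 (-0.10 to 0.34) and 0.36 (0.15 to 0.59) there. Efemp1 had 249 and 265 CPM, with an interval of -0.06 to 0.24. Fbln1 passed 2-fold in myofibroblasts at log2 1.01 (0.49 to 1.52), from 87 and 53 UMIs. Without the 5 cells richest in Fbln1 of each library that value was -0.39. This trimming was unequal, because the antibody library had 12 myofibroblasts and the control IgG library 33. The cells left out held 84.9% of the antibody library's Fbln1 UMIs in this subset, but 41.4% in the control IgG library. A fall was thus built in, and the sign of -0.39 shows no direction. The value of 1.01 still rests on few cells.

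Over all fibroblasts the lysyl oxidases were nearly level between the libraries. Lox had 400.3 CPM with control IgG and 371 CPM with the antibody (log2 -0.11, -0.23 to 0.02), and Loxl1 351 and 326 CPM (-0.11, -0.24 to 0.02). In other fibroblasts Loxl1 was lower with the antibody, at 288 and 209 CPM (log2 -0.46, -0.69 to -0.23). Lox had 322 and 341 CPM there (0.08, -0.12 to 0.28). Lox was highest in myofibroblasts, with 531 and 643 CPM against 333 and 319.6 CPM in Pi16 or Car3 fibroblasts. Loxl1, the member of the family tied to elastin renewal, was highest in Pi16 or Car3 fibroblasts, with 589 and 546 CPM against 243 and 301 CPM in myofibroblasts. The 2 enzymes thus differed in which of these subsets stood higher, while their levels over all 14 pairs of class and library ran closest of any 2 members (Pearson r 0.99 on log2(CPM + 1), points that share libraries and depth).

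**Figure D4:**
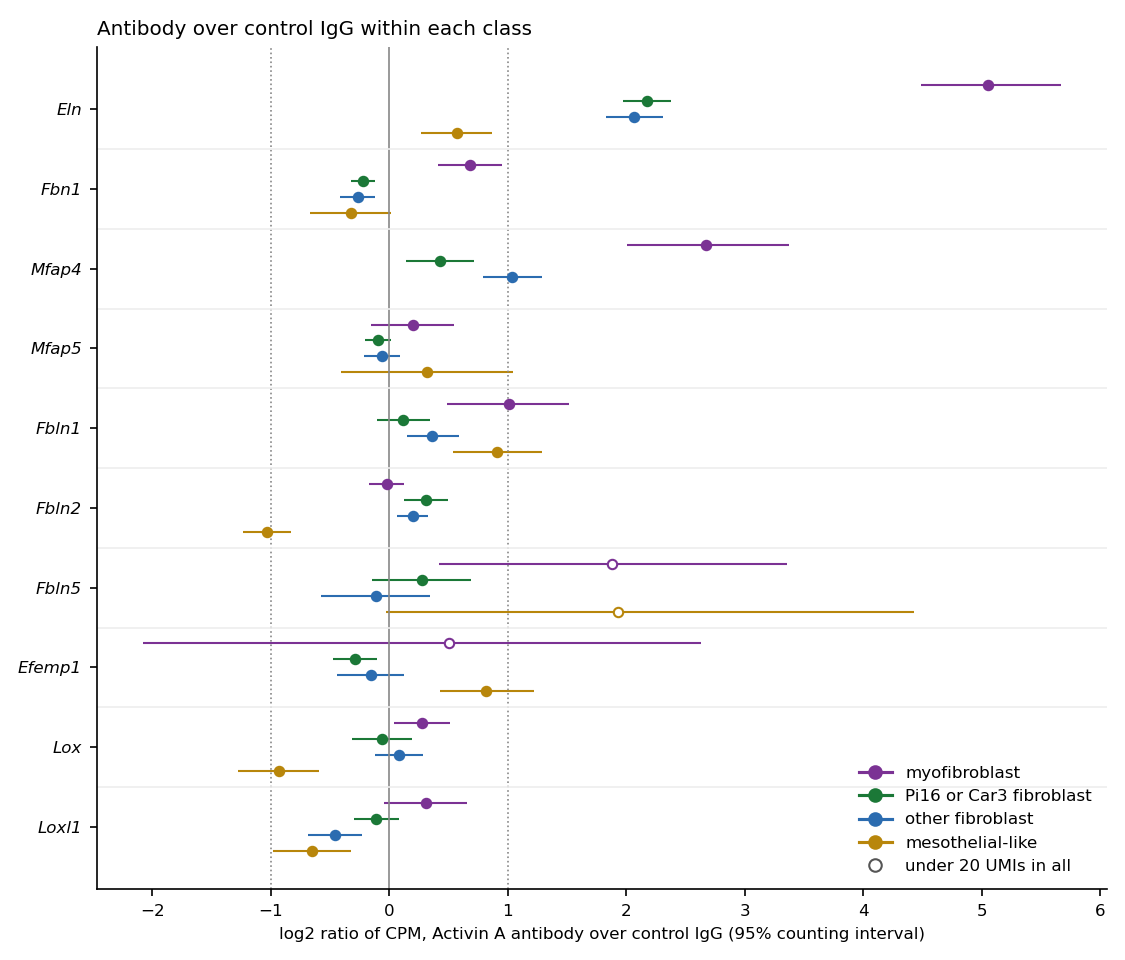
Log2 ratio of CPM, Activin A antibody over control IgG, for each member in the 3 fibroblast subsets and in mesothelial-like cells; lines are 95% counting intervals, open points have under 20 UMIs in both libraries together, and dotted lines mark 2-fold. Eln lies to the right of 2-fold in all 3 fibroblast subsets, and Fbln2, Lox and Loxl1 lie to the left of 0 in mesothelial-like cells; Mfap4 of mesothelial-like cells, at 0 UMIs with the antibody, is not drawn.

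By subset, 3 of 10 members (Eln, Mfap4 and Fbln1) were called higher in myofibroblasts, where 6.4% of 7204 genes were, 1 of 10 (Eln) in Pi16 or Car3 fibroblasts, where 3.35% of 8257 genes were, and 2 of 10 (Eln and Mfap4) in other fibroblasts, where 3.8% of 9790 genes were. No member was called lower in any of them, against 6.48%, 3.63% and 2.85% of genes. Fbln5 and Efemp1 had under 20 UMIs in myofibroblasts and could not be called there. The myofibroblast calls of Eln and Mfap4 are not separate. The same 1 cell of the antibody library held 263 of its 281 Eln UMIs and 37 of its 56 Mfap4 UMIs in this subset. Of the 53 Fbln1 UMIs there, 18 lay in 1 cell.

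The mix of subsets differed between the libraries and moved some of the sums. Myofibroblasts gave 36.0% of the fibroblast UMIs with control IgG and 12.1% with the antibody, Pi16 or Car3 fibroblasts 26.6% and 31.4%, and other fibroblasts 37.4% and 56.6%. With the mix of the control IgG library set in both, Eln was 6.21-fold higher and Mfap4 2.05-fold. With that of the antibody library they were 4.84-fold and 1.84-fold higher, which takes Mfap4 under 2-fold. For 5 members the side of 0 depended on the mix. Fbln2 went from log2 -0.17 to 0.10 and 0.17, and Lox from -0.11 to 0.15 and 0.08, both genes that are highest in myofibroblasts. Fbn1, Mfap5 and Efemp1, highest in Pi16 or Car3 fibroblasts, went from 0.02, 0.16 and 0.09 to values between -0.24 and -0.05. Fbln1 stayed above 0 but went from 0.56 to 0.36 and 0.29, as did Fbln5, from 0.49 to 0.28 and 0.13.

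**Figure D5:**
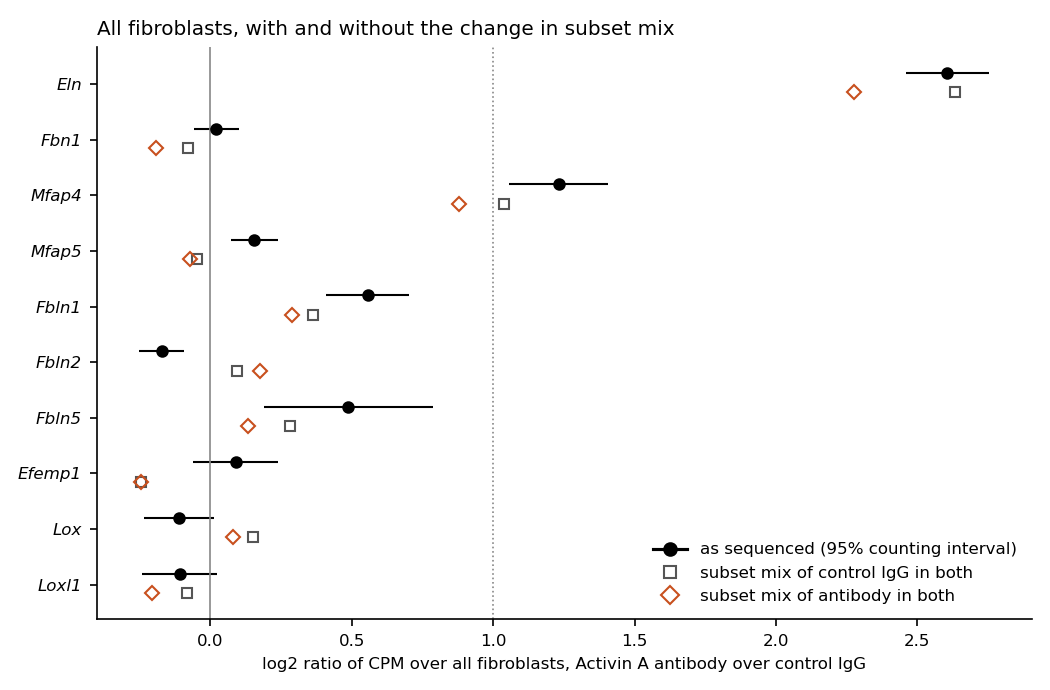
Log2 ratio of CPM over all fibroblasts, Activin A antibody over control IgG, as sequenced (black, with 95% counting intervals) and with the subset mix of one library set in both (open squares for control IgG, open diamonds for the antibody). Eln lies above 2-fold in all 3 (6.09-fold, 6.21-fold and 4.84-fold), Mfap4 lies below it in 1, and Fbln2 and Lox cross from below to above 0.

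In mesothelial-like cells the pattern was another one. Fbln2 had 599.9 CPM with control IgG and 294 CPM with the antibody (log2 -1.03, -1.23 to -0.83), the 1 of 10 members called lower, against 3.66% of 8931 genes. None was called higher, against 3.89%. Mfap4 and Fbln5 had under 20 UMIs and could not be called. The Fbln2 call was lost with the fibroblast gate first and as the mean over cells. Lox had 207 and 109 CPM (-0.93) and Loxl1 197 and 126 CPM (-0.65). Fbln1 had 87.1 and 163 CPM (0.91, 0.54 to 1.29) and Efemp1 79.99 and 141 CPM (0.82, 0.43 to 1.22). The 41 and 29 cells also differed in markers of fibroblasts: the summed level of the 6 fibroblast markers, all with UMIs in both libraries, was 2544 and 1602 CPM, and that of the 5 myofibroblast markers 947 and 278 CPM. Their part in these differences was not tested.

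Fbln2 had UMIs in 71.2% and 65.2% of cancer-like cells, Fbn1 in 48.0% and 44.8%, and Fbln1 in 22.5% and 25.3%. These cells were deep, with medians of 58477.5 and 56180 UMIs, which raises such shares. Thinned as for Eln above, the shares were 14.4% and 11.8% for Fbln2, 6.62% and 5.59% for Fbn1, and 1.35% and 1.71% for Fbln1. The 129 and 150 Fbln1 UMIs of these cells gave 12.8-fold and 15.7-fold the lymphoid level. Apart from Fbln2, Fbn1 and Fbln1 in cancer-like cells, the members had few UMIs outside the stroma. In cancer-like cells Eln was called higher, where 1.86% of 13810 genes were, at 0.676 and 2.30 CPM, and Mfap5 and Lox were called lower, where 2.94% were, all at levels under 3 CPM. With control IgG single cells held 14 of 23 Mfap5 UMIs and 19 of 53 Lox UMIs. Without the richest cell of each library Mfap5 had 9 and 5 UMIs, too few for a call, and Lox had 1.92 and 1.18 CPM (log2 -0.70), no call, while Eln was still called higher (log2 1.77). In lymphoid cells 6 members had at least 20 UMIs, of which Eln was called higher (0.227 and 0.764 CPM) and Lox lower, beside 1.54% and 2.34% of 14507 genes. In barcodes with under 100 UMIs, which hold RNA set free from cells, Eln had 7.17 and 32.1 CPM. After the free RNA expected in fibroblasts was subtracted the Eln ratio over all fibroblasts was 6.09, as before. In myeloid cells 4 members had at least 20 UMIs, of which Fbn1 and Fbln2 were called higher and none lower, beside 5.26% and 2.43% of 13545 genes. Fbln2 had 20 UMIs (1.06 CPM) there with control IgG and 56 UMIs (6.76 CPM) with the antibody, of which 1 cell held 49. Without the richest cell of each library neither was called, with Fbln2 at 1.01 and 0.85 CPM and Fbn1 at 1.17 and 1.94 CPM.

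A wider list of 52 genes of elastic fibre assembly, cross-linking, turnover and cell attachment had few calls in fibroblasts. In all fibroblasts 46 had at least 20 UMIs, of which none was called higher and 2, Ltbp2 and Ctss, were called lower, against 3.2% and 2.84% of all genes. The median log2 ratio of the list was 0.21, with 0.35 for its 14 measured microfibril and fibre proteins, -0.03 for its 10 cross-linking and maturation genes and 0.05 for its 11 measured elastolytic enzymes and inhibitors. In myofibroblasts 2 of 36 were called higher (Ltbp4 and Itgb3) and 3 lower (Emilin1, Ltbp1 and Ltbp2), against 6.4% and 6.48% of all genes. In Pi16 or Car3 fibroblasts 1 of 42 was called higher (Fbn2), against 3.35% of all genes. In other fibroblasts 1 of 44 was called higher (Prtn3, a neutrophil protease, with 21 UMIs in all), against 3.8%. There 2 were called lower (Ltbp2 and Ctss), against 2.85%. In mesothelial-like cells 7 of 35 were called lower and 1 higher, against 3.66% and 3.89% of all genes. Their median log2 ratio was -0.44 against 0.01 over all genes. In cancer-like cells 6 of 46 were called lower and none higher, against 2.94% and 1.86% of all genes. In lymphoid cells 1 of 42 was called lower and 4 higher, against 2.34% and 1.54%. In myeloid cells 3 of 41 were called lower and 10 higher, against 2.43% and 5.26%.

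Ltbp4 and Ltbp2, relatives of fibrillin, went opposite ways. Ltbp4, which helps fibulin-5 to place elastin on microfibrils, had 158 CPM with control IgG and 315 CPM with the antibody (log2 1.00, 0.83 to 1.17), just under the call. Ltbp2, which binds fibulin-5 and fibrillin-1, had 86.4 and 27.6 CPM (-1.65, -2.04 to -1.26), and was lower in other fibroblasts too, at 81.2 and 32.8 CPM. Emilin1, a glycoprotein at the surface of elastin, had 186 and 106 CPM (-0.82, -1.03 to -0.61). For genes of the wider list the ratios over all fibroblasts were not recomputed with the subset mix held. Myofibroblasts gave 36.0% of the fibroblast UMIs with control IgG and 12.1% with the antibody. There Ltbp4 had 17.1 and 34.5 CPM, Ltbp2 151.7 and 62.7 CPM and Emilin1 292 and 135 CPM. Fbn2, the fibrillin of developing tissue, had 38.9 and 69.97 CPM (0.85, 0.50 to 1.20). Mfap2, a partner of the fibrillins, had 169 and 205 CPM (0.28), and Efemp2, the fibulin that joins Lox to elastin, 278 and 234 CPM (-0.25). Ctss, an elastin-cleaving cathepsin of macrophages, had 46 and 9 UMIs in fibroblasts. The 6 myeloid markers, which had a summed level of 52.6 CPM there with control IgG (6 of 6 with UMIs) and 12.9 CPM with the antibody (5 of 6, with Adgre1 at 0), moved with it, and their part was not tested.

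For each member the 3 non-member genes with the most similar level over the 14 pairs of class and library were named from 13180 genes. Their r values lay between 0.97 and 1.00, as the 3 highest for each member, over points that share classes, libraries and depth. They were Tmeff2, B830012L14Rik and Spats2l for Eln, Nbl1, Medag and Lama4 for Fbn1, Postn, Cilp and Thbs2 for Mfap4, and Dact1, Plagl1 and Ctsk for Mfap5. For the fibulins they were Lamb2, Adamts1 and Lama4 for Fbln1, Loxl2, Phldb2 and Kdelr3 for Fbln2, Klhl13, Pamr1 and Pcsk5 for Fbln5, and Lvrn, Sema3c and Podn for Efemp1. The collagens Col1a2, Col5a2 and Col1a1 were nearest to Lox, and Mmp23, Col1a2 and Nsg1 to Loxl1. Among the members themselves r ran from 0.75 for Fbln2 with Efemp1 to 0.99 for Lox with Loxl1.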

How the data were processed

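Single-cell RNA sequencing counts of tumours at the site of peritoneal abrasion were analysed in 2 libraries, 1 per group, grouped by the sample titles. As deposited by the authors, the values are UMI counts of 32285 genes in every droplet barcode, neither normalized nor filtered (98174850 UMIs over 1484815 barcodes with control IgG, 74117462 over 1316737 with the antibody). The submitters' processing notes name Cell Ranger 7.0.1 and mm10, the file headers name Cell Ranger 4, and the labels and methods give different versions of the 10x chemistry. The groups given a TGFβ antibody were not analysed here. The members and lists were chosen with earlier results of these data known.

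A barcode was taken as a cell where it had between 1000 and 8500 genes, between 1000 and 100000 UMIs and no more than 10% of UMIs from mitochondrial genes. Gates on markers, in UMIs per 10000, were applied in order: cancer-like (Dlk1 and Hmga2), immune, endothelial-like, mural-like, mesothelial-like (at least 3 of Msln, Upk3b, Lrrn4, Nkain4, Krt19, Wt1) and fibroblast (at least 3 of Col1a1, Col1a2, Col3a1, Dcn, sum at least 20). Fibroblasts with Acta2 plus Tagln of at least 10 were myofibroblasts, and others with at least 2 UMIs of Pi16 plus Car3 were Pi16 or Car3 fibroblasts. Cells passing the cancer or immune gate and another gate (89 and 59) were left out as mixed, and held 240 and 288 Eln UMIs. Cancer-like cells that passed the fibroblast gate were mixed only at Col1a1 of at least 5, and the mesothelial gate alone left them cancer-like. Cells passing both the mesothelial and the fibroblast gate were kept as mesothelial-like. No doublet caller was used, and leaving out the 5% deepest cells of a class was tried in its place.

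UMIs were summed per class and library as CPM, with exact Poisson 95% intervals, Clopper-Pearson intervals for shares and conditional binomial intervals for ratios (Python 3.11.15, numpy 2.4.6, scipy 1.17.1, pandas 2.3.3, matplotlib 3.10.9). These cover counting error only. No test between groups was made, since cells are not replicates. A gene was called with at least 20 UMIs over both libraries and at least 2-fold. The ratio table was tested on simulated counts. Named from the wider list were the genes called in fibroblasts and Efemp2, Emilin1, Mfap2, Fbn2 and Ltbp4. Likeness used genes with at least 200 UMIs. Gene identifiers were matched to GENCODE M21 for 99.6% of genes. Promoter sequences and their positions are from RefSeq (GRCm38.p6).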

Additional observations from a re-analysis of the deposited data

Results flagged for a closer look

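Differences in opposite directions between classes are listed here, each as the log2 ratio of CPM, antibody over control IgG, with 1 library per group, so that the difference between classes was not tested. Fbn1 was at 0.68 in myofibroblasts (33 and 12 cells), at -0.22 in Pi16 or Car3 fibroblasts and at -0.27 in other fibroblasts. Fbln2 was at 0.31 in Pi16 or Car3 fibroblasts and 0.20 in other fibroblasts, and at -1.03 in mesothelial-like cells. Efemp1 was at 0.82 in mesothelial-like cells and -0.29 in Pi16 or Car3 fibroblasts. Lox was at 0.28 in myofibroblasts and -0.93 in mesothelial-like cells. Single myofibroblasts held 51 of the 560 Lox UMIs of this subset with control IgG and 66 of the 205 with the antibody.

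The RNA outside cells, from barcodes with under 100 UMIs that belong to no cell class, also differed. Eln had a log2 ratio of 2.16 (45 and 148 UMIs, 4.47-fold) and Mfap4 of 1.30 (38 and 69 UMIs, 2.47-fold). The median of 12675 genes in this RNA was 0.44, and the other 8 members lay between -0.33 and 0.98. More broken cells and more RNA per cell cannot be told apart in it.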

How the results depend on the processing

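No paired analysis was possible because control IgG and antibody have 1 pooled library each, which also means that none could be left out. Over 14 alternatives that recompute the levels, the direction over all fibroblasts held in all 14 for Eln (log2 1.75 to 2.66), Mfap4 (1.04 to 1.49), Fbln1, Fbln5 and Mfap5 (higher) and Lox and Loxl1 (lower), and in 13 for Efemp1 and Fbln2 and 10 for Fbn1. The settings that change the Acta2 and Tagln gate or the Pi16 and Car3 gate only move fibroblasts between subsets. They repeat the main value over all fibroblasts, so no change of direction was possible in them. These repeats are counted among the 14 and among the log2 ratios below that neither moved nor reversed. Holding the subset mix is not among these 14. With it Mfap5 was at log2 -0.05 and -0.07 and Lox at 0.15 and 0.08, and Fbln2, Fbn1 and Efemp1 also changed side. The Eln ratio was log2 2.28 with the fibroblast gate before the mesothelial gate, 1.75 as the mean over cells, 2.41 and 2.26 without the 1 and the 5 richest cells, and 2.24 with mixed cells put back (52 and 35 cells). The last and the 5-cell setting were chosen after seeing the data. The count of members called higher in other fibroblasts went from 2 to 1 with the Acta2 and Tagln gate at 5, with the Pi16 and Car3 gate at 1 UMI, as the mean over cells and at 3-fold, where that in all fibroblasts was also 1. In myofibroblasts it went from 3 to 1 with the Acta2 and Tagln gate at 20, where Eln was at log2 1.02 with too few UMIs for a call, and to 0 without the 5 richest cells, where 1 member (Mfap5) was called lower and Fbln1 turned to -0.39. In mesothelial-like cells the count lower went from 1 to 0 with the fibroblast gate first, as the mean over cells and at 3-fold, and to 3 at 1.5-fold, and the count higher from 0 to 1 at 10 UMIs and 2 at 1.5-fold. The cause of these moves was not tested. In myofibroblasts the 5 richest cells are a larger part of the antibody library's 12 cells than of the other library's 33. Leaving them out therefore tends to lower the ratio by itself. The Mfap5 call and the sign of Fbln1 in that setting show no direction. Thinning to 5000 UMIs gave an Eln share of 30.6% and 42.6%. In all, 64 log2 ratios moved by more than their counting error, 1 reversed and 569 did neither, 14 counts of members called moved and 166 stayed within 1.5 times, and all 20 thinned shares moved. Between the mixes of the 2 libraries, 2 of the mix-held ratios moved and 8 did not. Among the fibroblast subsets depth limits the 12 antibody myofibroblasts most, where 3 UMIs are 9.40 CPM.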

Other observations

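Elastin-cleaving enzymes of leukocytes were chosen here after their values were seen. Elane, neutrophil elastase, had 1 UMI in the 2437 myeloid cells of the control IgG library and 1285 UMIs in the antibody library, all in 19 of its 1200 myeloid cells. Lymphoid-gated cells had 0 and 505 Elane UMIs, the latter in 6 of 4409 cells. Prtn3, a related protease, had 93.8 and 211 CPM in myeloid cells, from 528 and 149 cells. Mmp12, macrophage elastase, had 15.2 and 123 CPM there (log2 3.01), from 60 and 26 cells. In fibroblasts Elane had 0 and 2 UMIs and Mmp12 0 and 1 UMIs.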
